A study of Mus musculus with 15 samples.

Results

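The regions described here are stretches of open chromatin that entered the hotspot lists of Ikzf KO macrophages late in the response to lipopolysaccharide (LPS). They were in both KO lists at 8 h of LPS and in no KO list at 0 h or 3 h. There were 3487 such late regions among 219126 KO regions on chromosomes 1 to 19, a share of 1.59%. The members were chosen by the presence of hotspots in the 6 KO lists. Each list had first been cut to its 111553 hotspots of highest tag density, the length of the shortest list, and hotspots sharing at least 1 bp had been merged. Their presence in KO lists is therefore a description and no finding. The 9 control lists took no part in the choice, and the tests below rest on them.

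The libraries are DNase-seq of bone marrow derived macrophages, all labelled C57BL/6J and given 10 ng/ml LPS for 0, 3 or 8 h. DNase-seq reads the places where DNase I cuts chromatin, and hotspots are the stretches with many such cuts. The authors deposited 1 hotspot list per library. At each time there were 2 libraries of macrophages labelled Ikzf KO, 2 of wild type (WT) and 1 of littermate controls, 15 libraries in all. The labels give no allele, driver, age or number of animals, and do not say whether replicates are separate animals or cultures. The spread between libraries that enters each p-value may therefore be technical only. All KO and littermate titles give 80 U of DNase, and the WT titles give 80 U for replicate 1 and 100 U for replicate 2. The 3 libraries of 1 genotype and replicate number are called a series.

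LPS is sensed by Toll-like receptor 4, which activates NF-kB and interferon regulatory factors. The first wave of induced genes needs no new protein. Later waves depend on proteins made in the first, among them secreted interferon that acts back on the cell through STAT factors, and on chromatin that is opened only during the response. Ikaros, the protein named in the series title and encoded by Ikzf1, is a zinc finger protein of blood cells that binds DNA and is known in lymphocytes for its association with the NuRD chromatin remodelling complex. Positions below are in the mouse build mm9 as the lists give them. No mm9 gene annotation or sequence was used here, so regions are named by position, and the cell type and the targeted gene were not checked against marker genes.

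Depth is unknown, since the lists hold no read counts. Tag densities in each list were whole multiples of 1 step, and the steps would give relative depths if all libraries had been scaled to the same total. Whether they were is not stated. On that reading the KO libraries lay at 0.85 and 1 at 8 h, and at 0.741 to 0.848 at 0 h and 3 h. The control libraries lay at 0.683 to 0.712 at 8 h and at 0.525 to 0.947 at 0 h and 3 h. The part of depth in the results was not tested. The lists held 111553 to 132279 hotspots in KO, 15659 to 51834 in WT and 52400 to 114427 in the littermate. WT lists stopped at Z-scores of 7.98 to 10.6, whereas littermate lists stopped at 3.65 to 4.54, so WT and littermate shares are not comparable in size.

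Late regions were a small part of what was open at 8 h. Of the 80216 regions in both KO 8 h lists, 57729 were also in all 4 KO lists of 0 h and 3 h. Another 7338 were in 3 of the 4 earlier lists, 7765 in 2 and 3897 in 1, and the 3487 late regions were in none. Of the 33679 regions seen at 8 h alone in either KO replicate, 10.4% were in both. The same share was 3.73% of 39431 regions at 3 h alone and 4.38% of 49837 at 0 h alone. Most time-restricted regions of a single KO library were thus not listed in its replicate. Without KO replicate 1 the rule gave 24147 regions, and without KO replicate 2 it gave 23547.

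Most late regions were weaker than the median hotspot kept from the KO 8 h lists. Their median length was 603 bp (middle 50% of regions, 499 to 731 bp), against 474 bp for all KO regions, 560 bp for the 2181 in the 0 h KO lists alone, 563 bp for the 1469 in the 3 h KO lists alone, 903 bp for the 5039 in the 3 h and 8 h lists but not at 0 h, and 1258 bp for those in all 6 lists. Merging joins hotspots across lists, so regions in more lists are longer for that reason too. The highest tag density of late regions had a median of 3.35 in KO 8 h replicate 1 and 3.32 in replicate 2, against 5.86 and 5.69 over all hotspots kept from those lists. The upper quartiles of late regions, 4.74 and 4.51, also lay under those medians of all kept hotspots. Z-scores had medians of 4.91 and 5.11. In these libraries a lower density can come from fewer cells with an open region or less opening per cell, which cannot be told apart. Only 163 late regions were among the 50000 hotspots of highest density in both 8 h lists, and 1 was among the 10000 highest.

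Where a late region was listed, the KO replicates gave it similar densities. Replicate 2 over replicate 1 had a median ratio of 0.972 (middle 50%, 0.850 to 1.16), and 88.4% of late regions lay within 1.5-fold. Across the 3487 regions the densities of the replicates had a Pearson r of 0.841, a description over regions that share the libraries and were cut at a minimum in each. The hotspots of the replicates shared a median of 0.672 of the base pairs covered in either. This overlap was 0.570 for regions in the 3 h lists alone and 0.593 for those in the 0 h lists alone.

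**Figure D1:**
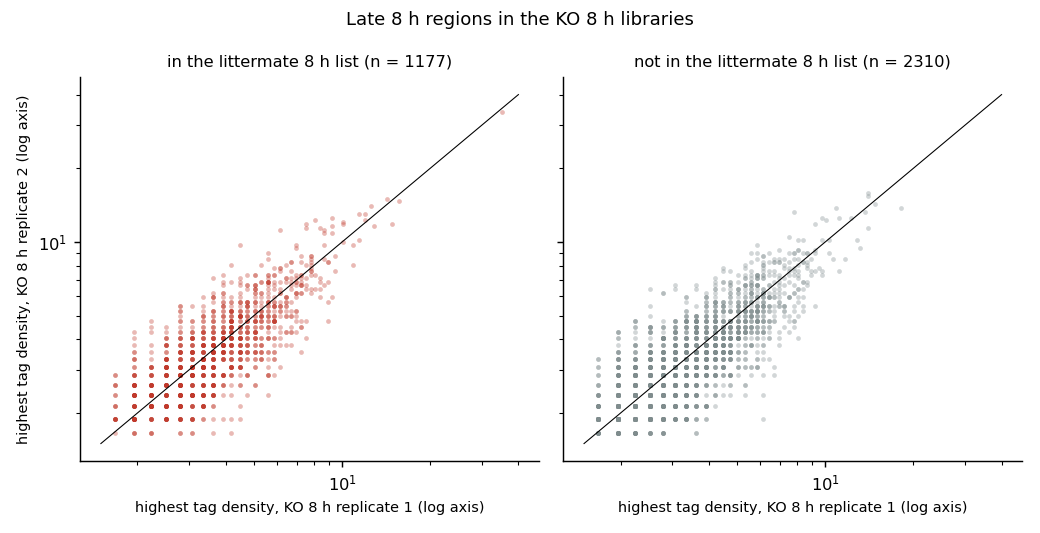
Highest tag density of each late region in KO 8 h replicate 1 (x, log axis) and replicate 2 (y, log axis), with regions in the littermate 8 h list on the left (n = 1177) and the others on the right (n = 2310). Each point is 1 region, points overlap where densities are equal, and the line marks equal values. Points follow the line in both panels, and most lie under a density of 10.

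The cut bore on which regions qualified. The lowest density kept at 8 h was 1.67 in replicate 1 and 1.66 in replicate 2. Just inside it, chr6:7954207-7954822 had densities of 2.23 and 1.66, chr2:6486318-6487094 had 2.79 and 1.66, and chr18:76770761-76771544 had 2.23 and 1.66 in replicates 1 and 2. The last of these was also in the deposited KO 3 h list of replicate 1 at 1.68, a rank below the cut. Just outside it, chr15:31941823-31942347 had 1.95 and 1.66, chr1:151061084-151061574 had 1.67 and 2.13, and chr13:28162181-28162641 had 1.67 and 1.66. Members and non-members at the cut were thus tied in density, with 4379 hotspots kept at the lowest density in replicate 1 and 2670 in replicate 2. Another 934 regions would have qualified but for a rank past the cut at 8 h. On the other side, 54 late regions (1.55%) were in a deposited KO 0 h or 3 h list at a rank below the cut, 53 of them at 3 h. The other 3433 were in no deposited KO list of 0 h or 3 h.

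With KO lists of 55776 hotspots the same rule gave 1405 late regions. Only 294 of these overlapped late regions of the longer lists, 20.9% of the 1405 and 8.43% of the 3487. The rest of the 1405 were in a KO 0 h or 3 h list at the longer cut, since the longer 8 h lists hold them too. Ranking by Z-score gave 3226 regions, of which 2659 overlapped, 82.4% of that list and 76.3% of the members. The littermate 8 h list held 62.3% of the 1405 regions of the shorter lists and 33.5% of those ranked by Z-score.

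Late regions were found in control lists mostly at 8 h. In the littermate lists as deposited, 88 of the 3487 late regions were found at 0 h, 52 at 3 h and 1177 at 8 h. These are shares of 2.52% (Wilson 95% interval, 2.05 to 3.10), 1.49% (1.14 to 1.95) and 33.8% (32.2 to 35.3). Intervals cover counting only, since the depth is unknown and neighbouring regions are not independent. Of all KO regions, 17.4% were in the littermate 0 h list, 14.8% in the 3 h list and 34.8% in the 8 h list. The share of late regions at 8 h was thus near that of all KO regions, and the shares at 0 h and 3 h were far under it.

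WT lists showed the same order at lower shares. In WT replicate 1, 2 late regions were found at 0 h, 2 at 3 h and 221 at 8 h (6.34%, Wilson 95% interval 5.58 to 7.20), against 6.84%, 6.24% and 18.7% of all KO regions. In WT replicate 2 the counts were 4, 3 and 251 (7.20%, 6.39 to 8.10), against 8.38%, 7.77% and 20.1% of all KO regions. Averaged over the control libraries, 15.8% ± 15.6 of late regions were found at 8 h (SD, n = 3) and 0.722% ± 1.05 at 0 h and 3 h (SD, n = 6). Here and below such an SD takes in the gap between WT and littermate lists, and is no measure of replicates alone. The difference of 15.0 percentage points was positive in 3 of 3 series, at 6.28 in WT replicate 1, 7.10 in WT replicate 2 and 31.7 in the littermate. The exact permutation test (two-sided) gave p = 0.0119 over 84 arrangements of the 9 libraries, the smallest p they allow, with an adjusted p of 0.0238 (Benjamini-Hochberg over 4 tests). Without the littermate series the difference was 6.69 points, without KO replicate 1 it was 7.95 and without KO replicate 2 it was 6.47. Values without a KO replicate, here and below, are for the 24147 or 23547 regions that the rule then gave. The control 8 h lists were also the longest of their series. The same difference over all KO regions was 14.3 points, at 12.2 in WT replicate 1, 12.1 in WT replicate 2 and 18.7 in the littermate. The rise of late regions was thus near that of all KO regions on average, smaller in both WT series and larger in the littermate, and the passing test does not set late regions apart from KO regions at large. With KO lists of 55776 hotspots the difference was 35.1 points, but for the 1405 regions found there, of which 294 overlapped these late regions.

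**Figure D2:**
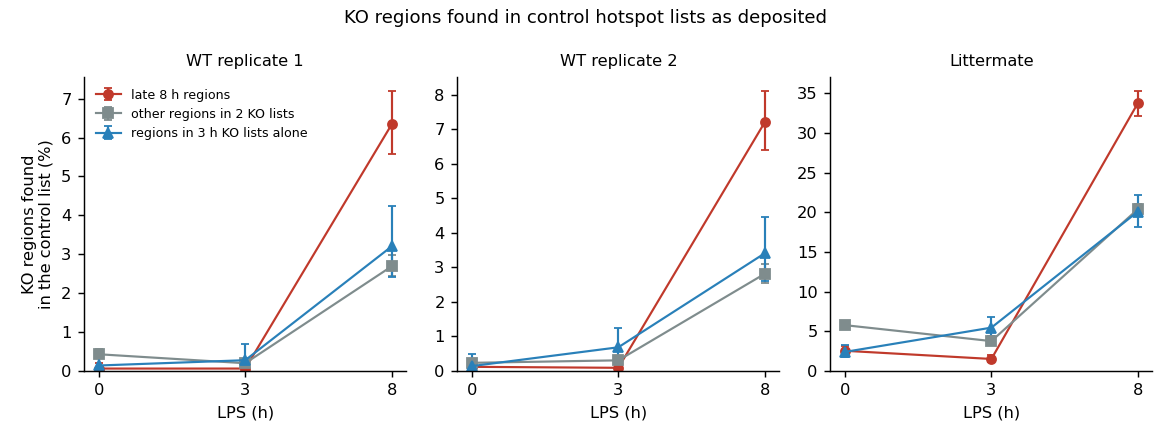
Share of KO regions found in each control list as deposited (y, percent, with a scale of its own in each panel) by hours of LPS (x), for late regions (n = 3487), other regions in exactly 2 KO lists (n = 13881) and regions in the 3 h KO lists alone (n = 1469, part of the others). Points are single libraries with Wilson 95% intervals. All 3 kinds were found most often at 8 h, late regions at 33.8% in the littermate and at 6.34% and 7.20% in WT.

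To remove list length within a series, the 3 lists of each control series were cut to the shortest of the series by tag density. This left 15659 hotspots per list in WT replicate 1, 20077 in WT replicate 2 and 52400 in the littermate. Lengths thus still differed between series. Late regions were then found in 11.6% of cases in the littermate at 8 h (406 regions, Wilson 95% interval 10.6 to 12.8), against 2.06% at 0 h and 1.49% at 3 h. All KO regions were found there at 16.5%, 14.8% and 21.7% at 0, 3 and 8 h. In WT replicate 1 the late regions numbered 1, 2 and 13 at 0, 3 and 8 h, and in WT replicate 2 they numbered 2, 3 and 19. All KO regions were found at 6.38%, 6.24% and 6.68% in WT replicate 1 and at 7.99%, 7.77% and 8.48% in WT replicate 2.

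At equal length the mean difference between 8 h and the earlier times was 3.56 percentage points. It was positive in 3 of 3 series, at 0.330, 0.473 and 9.87 points, but did not pass the test over all 9 libraries (exact permutation p = 0.167, adjusted p = 0.167). Without the littermate series it was 0.401 points. For the regions that the rule gave without KO replicate 1 or 2 it was 1.49 or 1.09. Littermate shares were above both WT shares at every time, in lists that were also longer at this cut. Even at 0 h and 3 h (2.06% and 1.49%) they were above both WT shares at 8 h (0.373% and 0.545%). The test over all 9 libraries also moves them between WT and littermate, so this gap enters its p. When times were permuted only inside each series, the same 3.56 points passed (exact permutation p = 0.037, adjusted p = 0.0494). With 27 arrangements no lower p was possible. Over all KO regions the difference at equal length was 2.36 points, at 0.369 and 0.603 in the WT series, above the values of late regions, and 6.11 in the littermate. With KO lists of 55776 hotspots the difference was 10.7 points and did not pass (exact permutation p = 0.167, adjusted p = 0.167). That value is for the 1405 regions found at that length, most of which are not the late regions described here. With all 9 control lists cut to 15659 hotspots, so that the series were of 1 length, the difference was 0.554 points and passed (exact permutation p = 0.0119, adjusted p = 0.0159). At 0, 3 and 8 h late regions then numbered 1, 2 and 13 in WT replicate 1 and 1, 2 and 14 in WT replicate 2. They numbered 4, 2 and 37 in the littermate, so at 3 h it was not above WT.

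Set beside regions of the same number of KO lists, late regions leaned toward 8 h in the controls. This was not particular to them. Regions in the 3 h and 8 h KO lists but not at 0 h, which are in more lists, were found still more often at 8 h. At equal length their shares were 3.39%, 12.7% and 34.6% in the littermate at 0, 3 and 8 h. In the WT 8 h lists they were 1.83% in replicate 1 and 3.89% in replicate 2. The other regions in exactly 2 of the 6 KO lists were found at 4.63%, 3.75% and 4.96% in the littermate lists of equal length at 0, 3 and 8 h. In WT replicate 1 they were found at 0.238%, 0.195% and 0.122%, and in WT replicate 2 at 0.158%, 0.303% and 0.187%. Late regions exceeded them by 2.43 ± 3.68 percentage points at 8 h (SD, n = 3) and lay under them by a difference of -0.913 ± 1.16 points at 0 h and 3 h (SD, n = 6). This contrast of 3.34 points was positive in 3 of 3 series and had an exact permutation p of 0.0119 (adjusted p = 0.0238). The other regions include those in the 0 h lists alone (2181) and those in the 3 h lists alone (1469), picked for the earlier times. Of the 2181, the littermate lists of equal length held 261, 108 and 134 at 0, 3 and 8 h. WT replicate 1 held 17, 8 and 4 of them, and WT replicate 2 held 11, 9 and 7. How much of the contrast comes from these regions was not tested. It was 0.423 and 0.516 points in the WT series and 9.09 in the littermate, so its size rested on the littermate, and it was 0.470 without that series. For the 24147 regions given without KO replicate 1 it was 1.63 points, and for the 23547 given without KO replicate 2 it was 1.04. With KO lists of 55776 hotspots the contrast was 7.88 points for the 1405 regions found there and no longer passed (exact permutation p = 0.0595, adjusted p = 0.0794).

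Against regions in the 3 h KO lists alone, the shift did not pass. Late regions minus 3 h regions gave 1.53 ± 2.57 percentage points at 8 h (SD, n = 3) and -0.742 ± 1.60 at 0 h and 3 h (SD, n = 6). The contrast of 2.27 points had an exact permutation p of 0.131 (adjusted p = 0.167). It was 0.265 points without the littermate series, 1.41 without KO replicate 1 and 4.21 with KO lists of 55776 hotspots, the last for the 1405 regions found at that length. It passed with all 9 lists at 15659 hotspots, at 0.441 points (exact permutation p = 0.0357, adjusted p = 0.0357), and without KO replicate 2, at 0.675 points (exact permutation p = 0.0119, adjusted p = 0.0159). The values without a KO replicate are for 24147 and 23547 regions, set beside regions in a single 3 h list, and not for the 3487 late regions. In the littermate the 3 h regions were found at 1.70%, 5.45% and 7.15% at 0, 3 and 8 h, so there they too were found most often at 8 h. They numbered 1, 4 and 6 in WT replicate 1, but 1, 10 and 6 in WT replicate 2. With all 9 lists at 15659 hotspots they were found most often at 3 h in the littermate (3, 11 and 9) and in WT replicate 2 (0, 5 and 2).

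**Figure D3:**
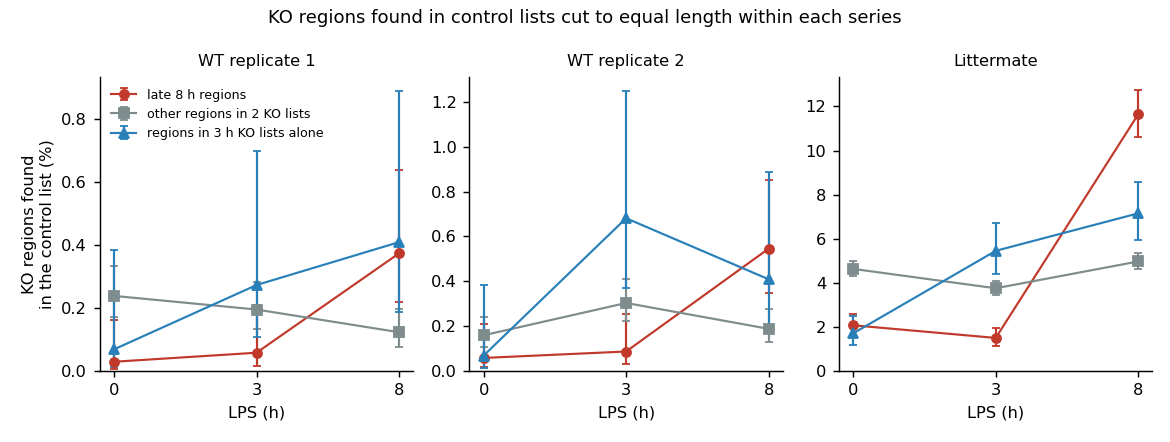
Share of KO regions found in control lists cut to equal length within each series (y, percent, with a scale of its own in each panel) by hours of LPS (x), for the same 3 kinds of region. Points are single libraries with Wilson 95% intervals. Late regions (red) were found most often at 8 h in each series, at 11.6% in the littermate, whereas the other regions in 2 KO lists stayed between 3.75% and 4.96% there.

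The share of late regions in no control list was near that of all KO regions. In the lists as deposited 2260 of 3487 were in none of the 9 (64.8%, Wilson 95% interval 63.2 to 66.4), against 62.8% of all KO regions, 75.1% of the other regions in 2 KO lists and 76.3% of those in the 3 h lists alone. At least 1 control 8 h list held a further 1092 that were in no earlier control list, 31.3% against 15.8% of all KO regions. A control list of 0 h or 3 h held 135 late regions, 3.87% against 21.4% of all KO regions. For late regions the WT 8 h lists were nearly contained in the littermate list: only 1 was in a WT list and not in the littermate list, where all KO regions had 0.146%. In the littermate 8 h list and in neither WT list were 864 late regions, 24.8% against 13.3% of all KO regions. All 3 control 8 h lists held 158, 4.53% against 17.2% of all KO regions. In all 3 control 8 h lists and in no earlier control list, the pattern by which late regions were chosen in KO, were 134 late regions (3.84%), against 2.56% of all KO regions. At equal length within series 5 late regions (0.143%) had that pattern, against 0.0447% of all KO regions. The count was 11 among the 24147 regions given without KO replicate 1, 13 without WT replicate 1 and 8 without WT replicate 2. In those lists 2997 late regions were in no control list, 85.9% against 73.7% of all KO regions.

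Late regions that were stronger in KO were more often in control 8 h lists. By the highest density in the weaker KO 8 h library, the littermate 8 h list held 22.1% of the 585 late regions under 2 (Wilson 95% interval, 18.9 to 25.6). It held 31.0% of those from 2 to 3, 39.1% from 3 to 4, 38.5% from 4 to 6 and 42.8% from 6 to 10. Of the 24 late regions at 10 or more it held 12. The WT 8 h lists held 2.39% and 2.22% of late regions under 2, and 6 of the 24 at 10 or more in each. In the littermate 0 h list the share had no such order and stayed at 3.01% or less in every class. Of the 24 strongest late regions, 12 were in no control list at any time. Shares by density were not computed for other KO regions, so the rise with density is not shown to be particular to late regions.

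**Figure D4:**
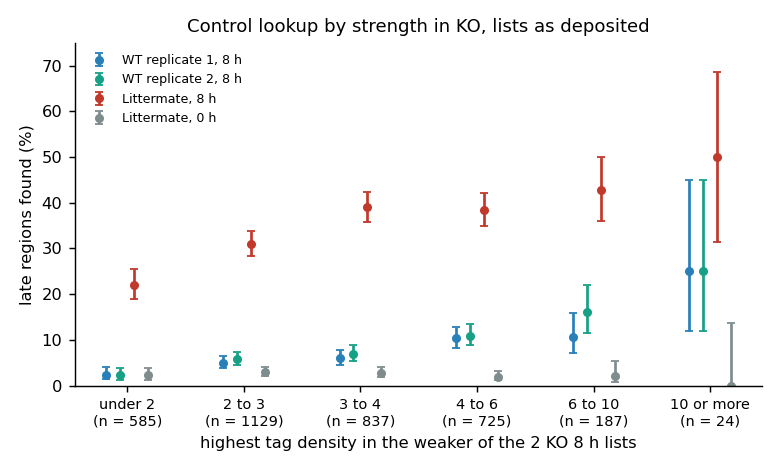
Share of late regions found in 4 control lists as deposited (y, percent) by the highest tag density in the weaker of the 2 KO 8 h lists (x, classes with their number of regions). Points are single libraries with Wilson 95% intervals. The littermate 8 h share lies at 22.1% under a density of 2 and between 31.0% and 50.0% above it, and the littermate 0 h share stays at 3.01% or less.

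The strongest late region by density, chr11:3005328-3005975, was not limited to KO. It had densities of 35.2 and 33.9 in the KO 8 h replicates, and 41.5 in WT replicate 1 and 42.0 in the littermate at 8 h. It was not listed in WT replicate 2 or in any list of 0 h or 3 h. Its Z-scores in KO were only 4.85 and 4.62, and it is the first KO region on its chromosome, where the first hotspot of any of the 15 lists starts at 3005150.

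The densities of the next 9 in KO lay between 12.3 and 18.1. At chr9:123423852-123424903 densities were 15.6 and 14.7 in the KO replicates, against 5.00 in the littermate 8 h list alone among the controls. At chr15:76099856-76100690 they were 14.2 and 14.9 in KO, against 6.99 in the littermate 8 h list. These regions were listed at 8 h in the littermate and in no WT list.

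Another 6 of the 10 strongest were in no control list at all. At chr15:74813409-74814177 densities were 14.8 and 14.2 in the KO replicates. At chr9:40503715-40505496 they were 14.0 and 15.9, in the longest region of the 10 (1782 bp), which lay 1275 bp from a region opened in KO at 3 h and 8 h. At chr11:115993519-115994481 they were 14.0 and 15.4, and at chr3:95516843-95518025 they were 18.1 and 13.8. The first 4 of the 6 had Z-scores of 12.3 to 18.3, well above the medians of all late regions.

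At chr19:8764754-8765792 densities were 13.7 and 13.3, with Z-scores of 21.0 and 23.9, and a region open in all 6 KO lists lay 220 bp away. At chr8:129365780-129366377 they were 12.3 and 12.6, with lower Z-scores of 6.01 and 8.27. Neither region was listed in a control library. The WT 8 h lists stopped at Z-scores of 7.98 in replicate 1 and 8.35 in replicate 2. The remaining region of the 10, chr2:129329669-129330952, was shared: its densities were 12.6 and 14.0 in the KO replicates, 11.4 and 9.72 in the WT 8 h replicates and 14.3 in the littermate at 8 h. It was in no list of 0 h or 3 h in any genotype, and a region in all 6 KO lists lay 535 bp away.

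Of the late regions in all control 8 h lists and no earlier one, the 5 with the highest littermate density had listed densities above those in KO. They were picked by the littermate value, so that direction is a description. At chr11:81913710-81914001 the density was 3.91 and 4.03 in the KO 8 h replicates, against 17.1 and 22.9 in the WT 8 h replicates and 49.0 in the littermate. At chr6:146565151-146565816 it was 7.53 and 6.40 in KO, against 26.1 and 33.3 in WT and 38.3 in the littermate. At chr2:127223520-127224214 it was 3.63 and 3.80 in KO, against 16.7 and 18.7 in WT and 26.98 in the littermate. In these 3 regions every control 8 h value was above both KO values, and no library of 0 h or 3 h listed them.

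At chr1:173845403-173846297 densities were 14.8 and 11.9 in KO, against 18.7 and 19.8 in WT and 26.0 in the littermate. At chr1:175561515-175562031 they were 1.95 and 3.80 in KO, against 15.4 and 6.94 in WT and 26.0 in the littermate. At chr9:119854400-119854845, outside these 5, they were 6.42 and 4.27 in KO, against 25.1 and 20.5 in WT and 24.0 in the littermate. All of these except the region at 175561515 make up the 5 late regions with the same pattern in control lists of equal length. The densities are the authors' values, and whether they were scaled alike in all libraries is not stated.

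Over all late regions found in a control 8 h list, position as a percent of the list had no common direction. The median rank of the 1177 in the littermate 8 h list was 59.7% and 57.2% of the way down the KO 8 h lists of replicates 1 and 2, against 54.1% down the littermate list. For the 221 in the list of WT replicate 1 it was 53.8% and 52.6% in KO, against 75.3% in WT. For the 251 in the list of WT replicate 2 it was 54.3% and 52.6% in KO, against 73.0% in WT. The lists differ in length and in the Z-score at which they stop, so no change in strength is read from these ranks.

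**Figure D5:**
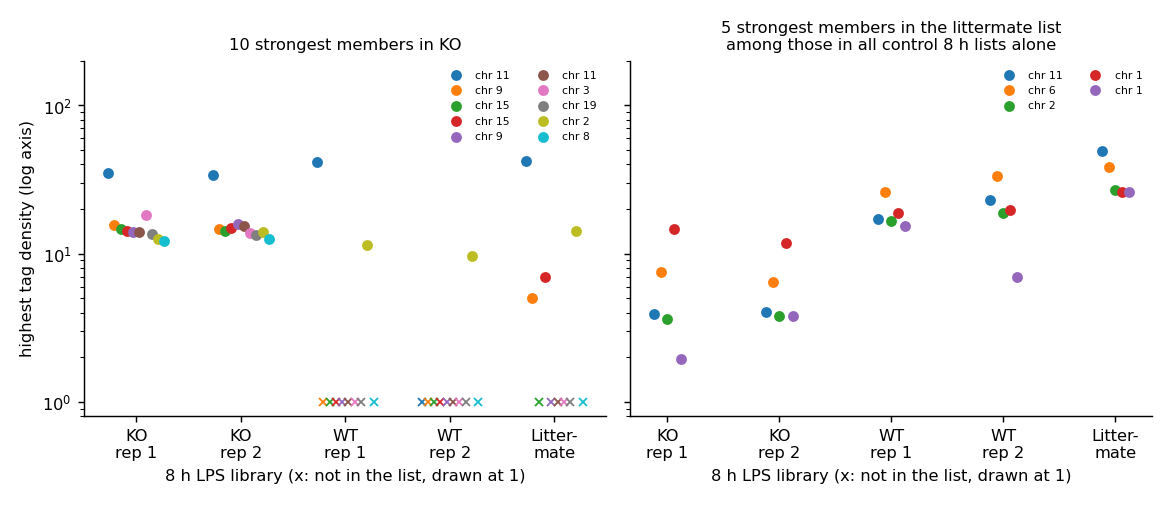
Highest tag density (y, log axis) in the 5 libraries of 8 h LPS for the 10 late regions strongest in KO (left) and the 5 strongest in the littermate list among those in all control 8 h lists and no earlier one (right). Each colour is 1 region, named by chromosome, and a cross at 1 marks a region absent from that list. On the left 6 of 10 regions have crosses in all 3 control libraries, and on the right each control value lies above both KO values of its region.

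Distance to chromatin open throughout was between that of other kinds of region. The median distance from edge to edge to the nearest region in all 6 KO lists was 7171 bp for late regions, against 4550 bp for regions in the 3 h and 8 h lists, 6383 bp for those in the 3 h lists alone, 9145 bp for those in the 0 h lists alone and 13046 bp for the other regions in 2 lists. Within 1 kb of such a region lay 550 late regions (15.8%) and within 10 kb 2055 (58.9%), against 11.3% and 41.2% of all KO regions. Of the regions in the 3 h and 8 h lists 70.8% lay within 10 kb. All KO regions here include those in all 6 lists. Late regions near open chromatin were also more often found in the littermate at 8 h. The share was 38.9% of the 550 within 1 kb, 37.9% of the 1505 at 1 to 10 kb, 31.3% of the 1024 at 10 to 50 kb and 17.6% of the 408 farther away (Wilson 95% interval, 14.3 to 21.6). Density moved with this order: the median in the weaker KO library was 3.32, 3.35, 2.85 and 1.95 over the 4 distances. The part of density in these shares was not tested, and shares by distance were not computed for other kinds of region.

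Late regions were spread over all 19 autosomes, and most had no other late region within 10 kb. They made up 1.41% to 2.00% of the KO regions of a chromosome, with a median of 1.53%. Regions opened in KO at 3 h and 8 h lay within 10 kb of 391 late regions (11.2%). They lay that near to 14.6% of regions in the 3 h lists alone and 4.36% of those in the 0 h lists alone. For the other regions in 2 lists the share was 6.95%. Regions in the 3 h lists alone lay within 10 kb of 66 late regions (1.89%). They lay that near to 4.35% of regions in the 3 h and 8 h lists and 1.56% of those in the 0 h lists alone. Runs of late regions with gaps of at most 10 kb numbered 152 and held 322 late regions, 139 of the runs being pairs. Another late region thus lay within 10 kb of 9.23% of late regions. A late region lay that near to 8.04% of regions in the 3 h and 8 h lists and 4.18% of the other regions in 2 lists. The share was 4.56% for regions in the 3 h lists alone and 3.94% for those in the 0 h lists alone.

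The longest run, chosen after its values were seen, had 6 late regions in 14392 bp at chr13:56719961-56734352. Their densities were 5.30 to 8.65 in KO 8 h replicate 1 and 4.27 to 8.30 in replicate 2. The same span held 8 KO regions, of which 2 were in all 6 KO lists. Of the 6 late regions 1 was in the littermate 8 h list, and none was in another control list. A run of 4 at chr12:50482543-50496519 had lower densities in KO, 2.23 to 3.63 and 1.66 to 2.61. All 4 of its regions were in the littermate 8 h list and in that of WT replicate 2, and 2 were in that of WT replicate 1. The other run of 4, at chr9:89089321-89102370, had densities of 3.35 to 4.19 and 1.90 to 4.03 in KO. The littermate lists held all 4 of its regions at 8 h and 2 at 3 h. Each WT 8 h list held 2, and the 3 h list of WT replicate 2 held 1.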

How the data were processed

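DNase-seq hotspot lists of 15 libraries were used, grouped by genotype and time from the sample titles. The authors made 1 list per library and deposited, per the file headers, each hotspot's coordinates, maximum and average tag density, Z-score and p-value. The authors deposited tag density as a signal whose scaling is not stated. Each hotspot also has a score, the Z-score of the file headers, which the authors deposited and which served here only as another ranking. The p-value the authors deposited was not used. mm9 and CASAVA are named in the submitters' processing notes. Aligner, hotspot caller and calling threshold are left unnamed there and in the labels. Lists were called per library, and their lowest Z-scores differ between WT and the rest, so a hotspot missing from a list may lie under that list's threshold. Tag densities were whole multiples of a step within 0.05 steps; total counts are unknown.

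KO lists were cut by highest tag density (ties by mean density, then position), restricted to chromosomes 1 to 19 after the cut and merged, with coordinates taken as inclusive. A region was found in a control list if at least 1 bp was covered. Control lists were used as deposited and cut to the shortest of each series. Shares at 8 h minus those at 0 h and 3 h were tested by exact two-sided permutation over the 9 control libraries, with Benjamini-Hochberg adjustment over 4 tests and a threshold of 0.05. The counting and the test were tested on simulated lists. Alternatives were ranking by Z-score, shorter and uncut KO lists, 50% coverage, equal length over all 9 control lists, a replicate block and leaving out each series. Regions named are the 10 strongest by the weaker KO 8 h density, the 5 strongest in the littermate among those in all control 8 h lists alone, the 5 strongest in no control list and the 3 on either side of the cut. The 5 regions with the late pattern at equal length were added after their values were seen. The members, classes and tests were chosen with earlier results of these data known. Gene context, gene lists, motifs and sequences, planned only for a genome or annotation of mm9, were not analysed here. Python 3.11.15, numpy 2.4.6, pandas 2.3.3, scipy 1.17.1 and matplotlib 3.10.9 were used.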

Additional observations from a re-analysis of the deposited data

How the results depend on the processing

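All 43 tested alternatives kept a positive difference, and none of the results turned round. The number of late regions was 1405 with KO lists of 55776 hotspots and 23547 to 24147 with 1 KO series left out, since a single list per time then decides. All values below with a KO series left out are for those larger sets. The 8 h difference in the lists as deposited ran from 6.47 to 19.4 percentage points with 1 series left out, that at equal length from 0.401 to 5.17, that against regions in the 3 h lists alone from 0.265 to 3.37 and that against the other regions in 2 KO lists from 0.470 to 4.80. With 1 control series left out, 15 arrangements allow no p under 0.0667, so no test can pass there. With all 9 control lists cut to 15659 hotspots, the difference at equal length was 0.554 points and that against the 3 h regions 0.441, and both passed. With KO lists of 55776 hotspots the 4 differences were larger, at 35.1, 10.7, 4.21 and 7.88 points in the order above. Only the first passed (exact permutation, adjusted p = 0.0476). They are for 1405 regions, of which 294 overlapped the late regions, and the cause was not tested. Late regions with the same pattern in equal control lists numbered 8 with 50% of a region covered and 7 to 13 with 1 series left out, against 5. The labels name no batch, litter or day by replicate number. In WT the number goes with the DNase amount, 80 U for replicate 1 and 100 U for replicate 2. The differences between replicates correlated between times at -0.0018 to 9.6e-05 in KO and -0.0133 to 0.131 in WT. The number was therefore not taken to pair libraries, although the highest value, WT 0 h against 3 h, is above 0.1. These correlations lie within KO or WT and do not measure the gap between WT and littermate lists. With times permuted within series as a replicate block (27 arrangements), exact p was 0.037 for the lists as deposited (15.0 points), at equal length (3.56 points) and against the other regions in 2 lists (3.34 points), adjusted p = 0.0494 for each, and 0.148 against the 3 h regions (2.27 points). The gene context and motif alternatives were not run. What the lists can show is limited by the authors' thresholds, since a region under a threshold is absent from a list.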

Other observations

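The X chromosome, which the rule leaves out, held 88 regions of the late pattern among 8953 KO regions there (0.983%, against 1.59% on chromosomes 1 to 19). Of these 88, 37 were in the littermate 8 h list, 4 in its 0 h list and 3 in its 3 h list. In the WT 8 h lists 9 and 11 were found, and in the WT lists of 0 h and 3 h none of the 88. The Y chromosome held 1 such region, which was in no control list.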
